A study of Homo sapiens with 6 samples.

Results

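The receptors of the epidermal growth factor (EGF) family and their ligands were examined in BxPC-3 cells after transfection with the microRNA miR-4711-5p. BxPC-3 is a long-established line derived from a human pancreatic carcinoma. The members were 10 of the 26255 gene symbols in the deposited expression values, taken by symbol: the receptors EGFR, ERBB2 and ERBB3, the EGFR ligands TGFA, AREG, EREG, HBEGF, BTC and EPGN, and the neuregulin NRG1. Messenger RNA was sequenced in 6 libraries, which fell into 3 groups of 2: cells with no treatment (Parent), cells given a negative control (NC-1) and cells given miR-4711-5p. Values from the transfected cells belong to 36 h after the start of treatment. The labels number the libraries of a group 1 and 2 but do not say whether they came from separate cultures, so p-values measure only the spread between these libraries, which may be technical. A lower level in such bulk RNA cannot be told apart as fewer expressing cells or less RNA per cell.

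EGFR, ERBB2 and ERBB3 are receptor tyrosine kinases of the cell surface that pair with one another when a ligand binds. TGFA, AREG, EREG, HBEGF, BTC and EPGN bind EGFR, are made as membrane-anchored precursors and are cut free by metalloproteases such as ADAM17, while NRG1 binds ERBB3 and ERBB4. ERBB2 has no known ligand of its own and ERBB3 has little kinase activity, so each depends on a partner. The activated receptors signal through RAS and ERK and through PI3K and AKT, and in pancreatic ductal cancer this family is known as a driver of growth.

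A microRNA pairs with messenger RNA mainly through its seed, bases 2 to 8. The mature microRNA (RefSeq, GRCh38.p14, chr1:59733269-59733291, minus strand) and the 3′ UTR sites found in TGFA and BTC are given because they are places where it could pair with transcripts of the family itself. The seed is in capitals in the microRNA. The capitals mark the match to the whole seed in TGFA, and in BTC the match to bases 2 to 7 followed by an A.
hsa-miR-4711-5p: uGCAUCAGgccagaagacaugag
TGFA site: ttataataaacCTGATGCtttttttt
BTC site: caggtaaatttTGATGCAgtaaattc

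The search covered CTGATGC, which matches bases 2 to 8, and TGATGCA, which matches bases 2 to 7 and ends in an A opposite base 1, on the transcript strand of the longest 3′ UTR that GENCODE annotates for a gene (GRCh37). Both motifs lie within the full 8-base match CTGATGCA, which none of the 10 members holds. The TGFA match, CTGATGC, lies at chr2:70674685-70674691 (GRCh37, minus strand), at position 3300 of a 3′ UTR of 3575 bases, and is present in 1 of 6 annotated coding transcripts with a 3′ UTR. The BTC match, TGATGCA, lies at chr4:75670827-75670833 (GRCh37, minus strand), at position 1054 of 1918 bases, in 1 of 2 transcripts. NRG1 also holds TGATGCA, at position 7715 of a 3′ UTR of 10320 bases, in 3 of 21 transcripts. Neither motif occurred in the longest 3′ UTR of EGFR, ERBB2, ERBB3, AREG, EREG, HBEGF or EPGN. A match was thus found in 3 of the 9 members that passed the filter on low values, and not in EPGN, beside 18.4% of the 11189 tested genes for which a 3′ UTR was available. This comparison was not matched for length, and all 3 had a longer 3′ UTR than the median of 1492 bases. Which 3′ UTR these cells use was not measured, and a match of letters does not show pairing.

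A different motif, TATTTAT, the core of AU-rich elements that are known to shorten the life of messenger RNAs, was searched in the same 3′ UTRs. Overlapping copies were not counted separately, so the counts are minima. It occurred at least 4 times in the longest 3′ UTR of EREG, 2 times each in TGFA, HBEGF and NRG1, and 1 time in AREG. It did not occur in EGFR, ERBB2, ERBB3, BTC or EPGN, and 36.9% of the tested genes held it, with no matching for 3′ UTR length.

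In GRCh37, the genes of 4 ligands lie in 1 stretch of chromosome 4: EPGN at chr4:75174187-75182506, EREG at chr4:75230862-75254466 and AREG at chr4:75310853-75320722 on the plus strand, and BTC at chr4:75669969-75719733 on the minus strand. A near-identical copy of AREG, AREGB, lies in the same stretch at chr4:75480629-75490486. The whole AREG messenger RNA of 1234 bases aligned there at 99.9% identity, and AREGB has no row in the deposited values, so the levels given for AREG are uncertain. The other members lie apart, with TGFA at chr2:70674416-70781325, HBEGF at chr5:139712428-139726188, EGFR at chr7:55086710-55279321, NRG1 at chr8:31496738-32713184, ERBB3 at chr12:56470583-56497289 and ERBB2 at chr17:37844167-37886679.

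Values are FPKM, the fragments assigned to a gene scaled to transcript length and library size, so levels of different genes can be set side by side. The read depth is unknown. The steps between low values gave a depth of 0.751 to 1.21 relative to Parent 1 for the other 5 libraries, although only 29.1% to 36.8% of low genes shared the step. All 6 markers of ductal epithelium were above 1 FPKM in each group, but they did not move together. KRT19 had means of 1629, 1274 and 901 FPKM in Parent, NC-1 and miR-4711-5p and MUC1 of 30.4, 24.4 and 15.1 FPKM. Both were called lower with miR-4711-5p against each control, and KRT7 was called lower against NC-1 (log2 difference -0.17, limma adjusted p = 0.0224). KRT18 was called higher with miR-4711-5p against each control, and EPCAM and KRT8 were called higher against NC-1. The insulin gene INS was listed at 0 in all 6 libraries. Of the 24 markers of other cells, 3 exceeded 1 FPKM in a library. CDH5, of endothelium, had means of 0.962, 3.02 and 0.541 FPKM in the same order, so that like HBEGF and AREG it was called higher in NC-1 than in Parent (limma adjusted p = 0.00204) and, with miR-4711-5p, lower than in NC-1 (adjusted p = 0.000165). With miR-4711-5p it was also called below Parent (log2 difference -0.35, limma adjusted p = 0.0472), and thus against both controls, as TGFA and NRG1 were. PRSS1, of acinar cells, had means of 1.13, 2.68 and 4.14 FPKM and was called higher in both transfected groups than in Parent (limma adjusted p = 0.0390 for NC-1 and 0.00427 for miR-4711-5p), as was EREG. COL1A1, of fibroblasts, was called in no comparison. The summed markers of endothelium were 1.33 to 1.39 FPKM in Parent, 3.25 to 3.53 with NC-1 and 0.649 to 0.775 with miR-4711-5p, and those of acinar cells were 0.730 to 1.57, 2.62 to 2.73 and 3.18 to 5.10 FPKM. The part of such RNA in the results was not tested. KLF5 and TFDP1, which the study treats as targets of miR-4711-5p, were lower in the miR-4711-5p libraries than in NC-1 by 0.89 and 0.99 on the log2 scale (limma adjusted p = 0.000116 and 8.14e-05).

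EGFR RNA was the most abundant of the family in the Parent cells, at 68.2 and 63.2 FPKM, and HBEGF was second at 49.3 and 45.0 FPKM. TGFA followed at 29.3 and 28.8 FPKM. ERBB2 and ERBB3 came next and overlapped each other, the only neighbours in the Parent order that did so. NRG1, EREG, AREG, BTC and EPGN followed in that order, down to 0.289 and 0.298 FPKM for EPGN. With NC-1 the order was HBEGF, EGFR, TGFA, EREG, ERBB3, ERBB2, NRG1, AREG, BTC and EPGN. With miR-4711-5p it was EGFR, HBEGF, EREG, ERBB3, ERBB2, TGFA, NRG1, AREG, BTC and EPGN. No neighbours overlapped between the 2 libraries of either transfected group. TGFA stood in place 3 of the 10 in Parent and NC-1 and in place 6 with miR-4711-5p, whereas EREG stood in places 7, 4 and 3.

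**Figure D1:**
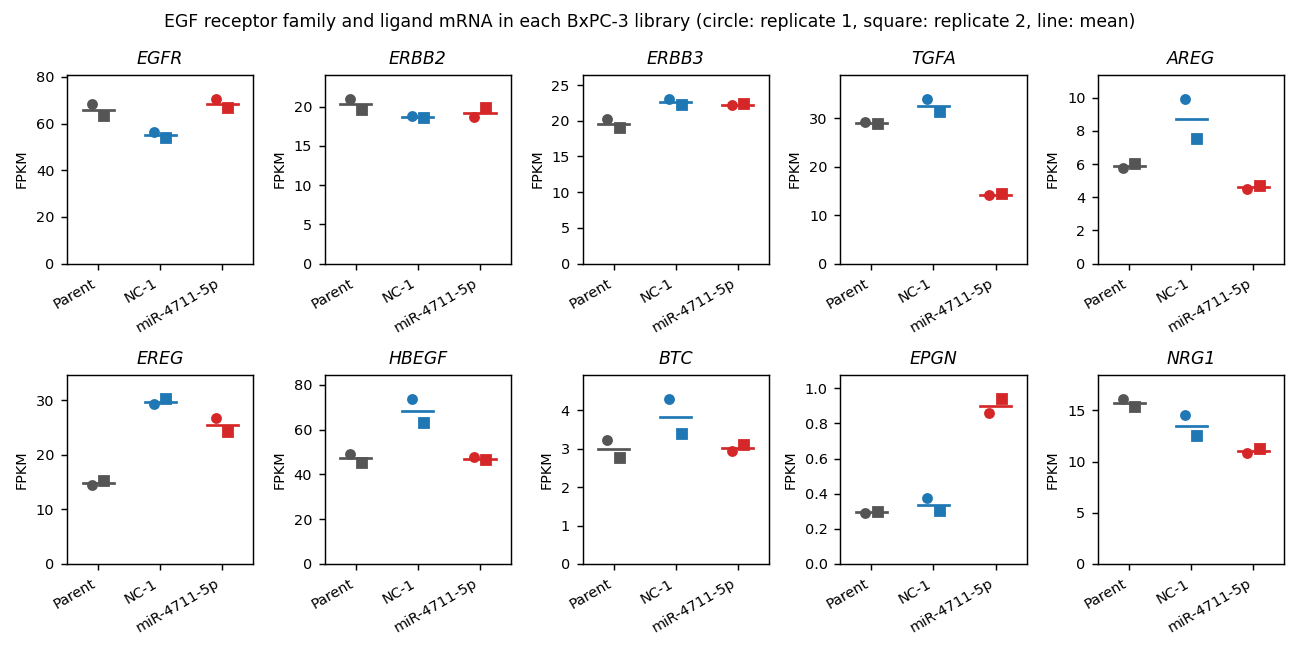
Level of each of the 10 members in each library, in FPKM, by group (Parent, NC-1 and miR-4711-5p). Each point is 1 library. Both miR-4711-5p points lie below all 4 others for TGFA, AREG and NRG1 and above them for EPGN.

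Differences between groups were tested on log2(FPKM + 1) with limma, in 1 fit of all 3 groups over the 12040 genes whose average across the 6 libraries reached 1 FPKM, and a gene is called here when its Benjamini-Hochberg adjusted p was under 0.05. Of the 10 members, 9 passed this filter, and EPGN did not. The 3 comparisons share libraries, so they are not independent of each other. Against NC-1, 1 of the 9 members was higher with miR-4711-5p (EGFR) and 5 were lower (TGFA, AREG, HBEGF, NRG1 and EREG), where 18.4% of all tested genes were called higher and 21.2% lower. Against Parent, 2 were higher (EREG and ERBB3) and 2 were lower (TGFA and NRG1), where 18.7% and 24.7% of all tested genes were called. Between the control groups, 4 members were higher in NC-1 than in Parent (EREG, HBEGF, AREG and ERBB3) and 1 was lower (EGFR), where 12.1% and 15.1% of all tested genes were called. TGFA and NRG1 were the 2 members called lower against both controls, as were 15.4% of all tested genes. None of the 9 tested members was called higher against both, as were 10% of all tested genes, and EPGN, outside this fit, is described separately. The count between NC-1 and Parent depended on single libraries. It fell without any single Parent or NC-1 library, and so did the count over all tested genes. The members' count also fell without either miR-4711-5p library, which enter only through the shared spread. Against NC-1 the members' count fell with any single library but NC-1 2 left out, the Parent libraries entering only through the shared spread. The count over all tested genes fell there too without Parent 1, NC-1 1 or either miR-4711-5p library. Against Parent the members' count fell without Parent 2 or either miR-4711-5p library and rose without either NC-1 library. In that comparison the count over all tested genes fell without either Parent library or miR-4711-5p 1.

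**Figure D2:**
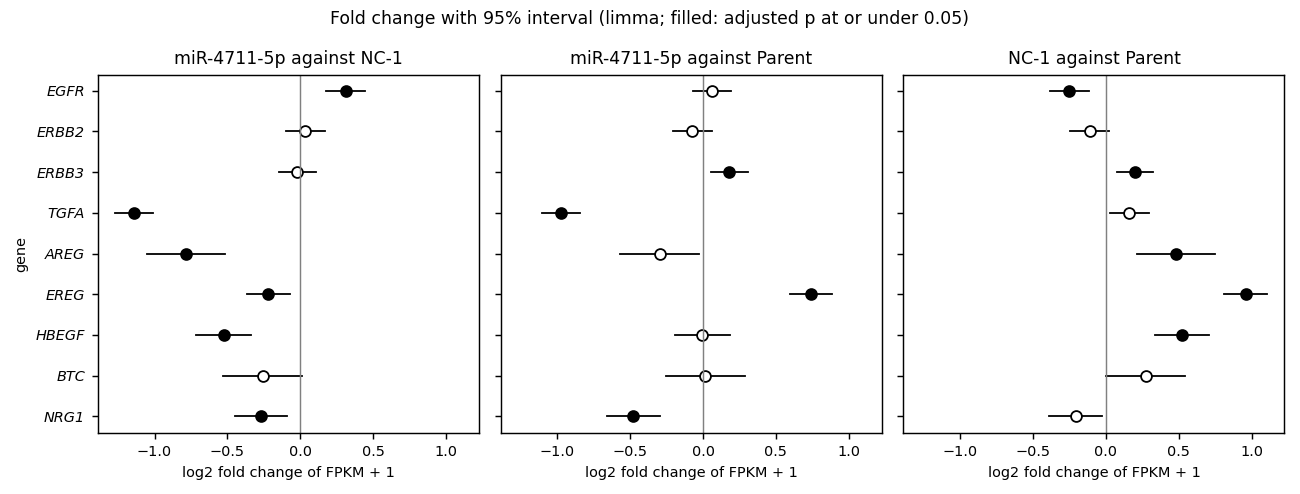
Fitted log2 fold change of each member on the log2(FPKM + 1) scale in the 3 comparisons, with 95% intervals from limma. TGFA lies below 0 by -1.14 against NC-1 and -0.98 against Parent, while HBEGF lies at -0.53 against NC-1 and at 0 against Parent.

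TGFA, which encodes transforming growth factor alpha, had the largest fitted change of the tested members in either comparison with miR-4711-5p. It measured 29.3 and 28.8 FPKM in Parent, 34.0 and 31.3 FPKM with NC-1, and 14.1 and 14.4 FPKM with miR-4711-5p. Both miR-4711-5p libraries lay far below all 4 controls. The mean with miR-4711-5p was 0.437 times that of NC-1 and 0.491 times that of Parent. The fitted log2 fold change was -1.14 (SE 0.06) against NC-1 and -0.98 (SE 0.06) against Parent, with limma adjusted p = 1.40e-05 and 2.34e-05. NC-1 and Parent were not called different, with a log2 difference of 0.16 (95% interval 0.03 to 0.29, limma adjusted p = 0.0706). This difference was 0.10 without NC-1 1 and 0.22 without NC-1 2. TGFA is the member whose 3′ UTR holds CTGATGC, printed above.

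Of the other EGFR ligands, HBEGF, the heparin-binding EGF-like growth factor that is also the receptor for diphtheria toxin, was at its highest with NC-1. It measured 49.3 and 45.0 FPKM in Parent, 73.5 and 62.9 FPKM with NC-1, and 47.5 and 46.4 FPKM with miR-4711-5p. The miR-4711-5p libraries lay within the Parent range and below both NC-1 libraries. HBEGF rose in NC-1 over Parent by 0.52 on the log2 scale (SE 0.08, limma adjusted p = 0.00503). With miR-4711-5p it fell by 0.53 against NC-1 (SE 0.08, limma adjusted p = 0.00214). Against Parent the difference was within -0.19 to 0.18 (95% interval, limma adjusted p = 0.976).

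AREG, amphiregulin, showed a similar order in the controls. It measured 5.77 and 6.02 FPKM in Parent, 9.91 and 7.51 FPKM with NC-1, and 4.53 and 4.68 FPKM with miR-4711-5p. The NC-1 libraries lay apart from each other and above all others, and the miR-4711-5p libraries lay below all 4 controls. AREG fell with miR-4711-5p against NC-1 by 0.78 on the log2 scale (SE 0.11, limma adjusted p = 0.00184). Against Parent its difference of -0.30 (95% interval -0.57 to -0.03) was not called (limma adjusted p = 0.0708), although it was called without NC-1 1 (adjusted p = 0.0189), without NC-1 2 (0.0181) and with only the 2 groups compared (0.0209). AREG was higher in NC-1 than in Parent by 0.48 (SE 0.11, limma adjusted p = 0.0217), a call that was lost in 7 of 12 alternative fits, with adjusted p up to 0.116. These were the fits without NC-1 1, either Parent library or either miR-4711-5p library, without the filter on low values, and with only the 2 groups compared. The difference was 0.30 without NC-1 1 and 0.66 without NC-1 2.

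EREG, epiregulin, was higher in both transfected groups than in Parent. It measured 14.4 and 15.2 FPKM in Parent, 29.3 and 30.2 FPKM with NC-1, and 26.7 and 24.2 FPKM with miR-4711-5p. The 3 groups did not overlap, with miR-4711-5p between Parent and NC-1. The NC-1 mean was 2.01 times that of Parent, a log2 difference of 0.96 (SE 0.06, limma adjusted p = 0.000390). The miR-4711-5p mean was 1.72 times that of Parent, a log2 difference of 0.74 (SE 0.06, limma adjusted p = 0.000134). The smaller difference between miR-4711-5p and NC-1, of -0.22 (SE 0.06, limma adjusted p = 0.0288), was lost without NC-1 1 (adjusted p = 0.0778), NC-1 2 (0.122) or miR-4711-5p 2 (0.172), and without the filter on low values (0.0563).

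BTC, betacellulin, a ligand of EGFR and ERBB4, was low and was called in no comparison. It measured 3.22 and 2.76 FPKM in Parent, 4.29 and 3.38 FPKM with NC-1, and 2.94 and 3.11 FPKM with miR-4711-5p. The NC-1 libraries lay above the others, and the miR-4711-5p libraries lay within the Parent range. Against NC-1 the log2 difference was -0.26 (95% interval -0.53 to 0.01, limma adjusted p = 0.116), which was -0.12 without NC-1 1 (adjusted p = 0.457) and -0.39, then called, without NC-1 2 (adjusted p = 0.0488). Its 3′ UTR holds TGATGCA, as printed above.

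EPGN, epigen, was the lowest member and the only one with its highest values in the miR-4711-5p libraries alone. It measured 0.289 and 0.298 FPKM in Parent, 0.376 and 0.300 FPKM with NC-1, and 0.862 and 0.936 FPKM with miR-4711-5p. Both miR-4711-5p libraries lay above all 4 controls, and the means were 2.66 times that of NC-1 and 3.06 times that of Parent. In a limma fit without the filter on low values, its log2 differences were 0.51 against NC-1 (adjusted p = 0.00384) and 0.55 against Parent (adjusted p = 0.00259). These differences understate the ratios, because the pseudocount of 1 is above the level of the gene. With each library left out in turn, the adjusted p of that fit ranged from 0.0217 to 0.0394 against NC-1 and from 0.0131 to 0.0324 against Parent. Within the stretch on chromosome 4, EPGN and EREG thus stood above Parent with miR-4711-5p, while AREG and BTC did not.

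NRG1, the neuregulin, was lower with miR-4711-5p than in either control. It measured 16.1 and 15.4 FPKM in Parent, 14.5 and 12.5 FPKM with NC-1, and 10.8 and 11.2 FPKM with miR-4711-5p. The 3 groups did not overlap. Against Parent it fell by 0.48 on the log2 scale (SE 0.08, limma adjusted p = 0.00249), in all 12 alternative fits. Against NC-1 it fell by 0.27 (SE 0.08, limma adjusted p = 0.0286), a call that was lost in 7 of the 12 alternative fits, with adjusted p up to 0.144. These were the fits without NC-1 1, either Parent library or either miR-4711-5p library, without the filter on low values, and with only the 2 groups compared. The difference was -0.17 without NC-1 1 and -0.37 without NC-1 2. NC-1 and Parent were not called different (limma adjusted p = 0.0847), except without NC-1 1 (log2 difference -0.31, adjusted p = 0.0451). On the same strand NRG1 shares 1835 exonic bases with RP11-1002K11.1 and 189 with ENSG00000286131, neither of which has a row in the deposited values, so its levels may include reads of these genes.

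Among the receptors, EGFR measured 68.2 and 63.2 FPKM in Parent, 56.3 and 53.9 FPKM with NC-1, and 70.4 and 66.6 FPKM with miR-4711-5p. The NC-1 libraries lay below the other 4, and the miR-4711-5p range overlapped that of Parent. EGFR rose with miR-4711-5p against NC-1 by 0.31 on the log2 scale (SE 0.06, limma adjusted p = 0.00439). Against Parent the difference was 0.06 (95% interval -0.07 to 0.19, limma adjusted p = 0.409). It was 0.114 without Parent 1 and 0.007 without Parent 2. NC-1 was below Parent by -0.25 (SE 0.06, limma adjusted p = 0.0180), a call that was lost without Parent 1 (adjusted p = 0.0915), NC-1 1 (0.0529) or NC-1 2 (0.0827). EGFR shares 186 exonic bases with an antisense gene, EGFR-AS1, which measured 2.25 to 3.20 FPKM, and whether the counting used strand is not stated.

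ERBB2, the partner receptor without a ligand, measured 21.0 and 19.6 FPKM in Parent, 18.8 and 18.6 FPKM with NC-1, and 18.6 and 19.8 FPKM with miR-4711-5p. The miR-4711-5p range overlapped both control ranges and no comparison was called. The 95% interval of the log2 difference was -0.10 to 0.17 against NC-1 and -0.21 to 0.06 against Parent. ERBB2 shares 571 exonic bases with MIEN1 and 144 with PGAP3 on the opposite strand.

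ERBB3, the neuregulin receptor, measured 20.2 and 18.9 FPKM in Parent, 23.0 and 22.2 FPKM with NC-1, and 22.2 and 22.4 FPKM with miR-4711-5p. Both transfected groups lay above Parent and overlapped each other. ERBB3 exceeded its Parent level with miR-4711-5p by 0.18 (SE 0.05, limma adjusted p = 0.0315), a call that was lost without Parent 2 (adjusted p = 0.126), miR-4711-5p 1 (0.117) or miR-4711-5p 2 (0.131). The rise of 0.20 in NC-1 over Parent (SE 0.05, limma adjusted p = 0.0330) was lost in 9 of 12 alternative fits, among them each of the 6 that left out a library, with adjusted p up to 0.137. Between miR-4711-5p and NC-1 the log2 difference was within -0.15 to 0.11 (95% interval, limma adjusted p = 0.788). ERBB3 shares 31 exonic bases with ENSG00000257411 on the same strand.

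The levels of the 6 EGFR ligands summed to 102 and 98.1 FPKM in Parent, 151 and 136 FPKM with NC-1, and 96.6 and 93.7 FPKM with miR-4711-5p. The sum was thus highest with NC-1, and the miR-4711-5p libraries lay just below those of Parent. HBEGF made up 45.8% to 49.5% of the sum in all 6 libraries. TGFA made up 28.6% and 29.4% in Parent, 22.5% and 23.1% with NC-1, and 14.6% and 15.4% with miR-4711-5p. EREG took 14.1% and 15.5%, 19.4% and 22.3%, and 27.6% and 25.8% in the same order of libraries. The ratio of TGFA to EREG RNA was accordingly 2.03 and 1.89 in Parent, 1.16 and 1.04 with NC-1, and 0.527 and 0.597 with miR-4711-5p, with no overlap between groups. AREG, BTC and EPGN together held the remainder, led by AREG at 4.68% to 6.55%. These shares compare RNA levels and were not tested, since they restate the values above.

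**Figure D3:**
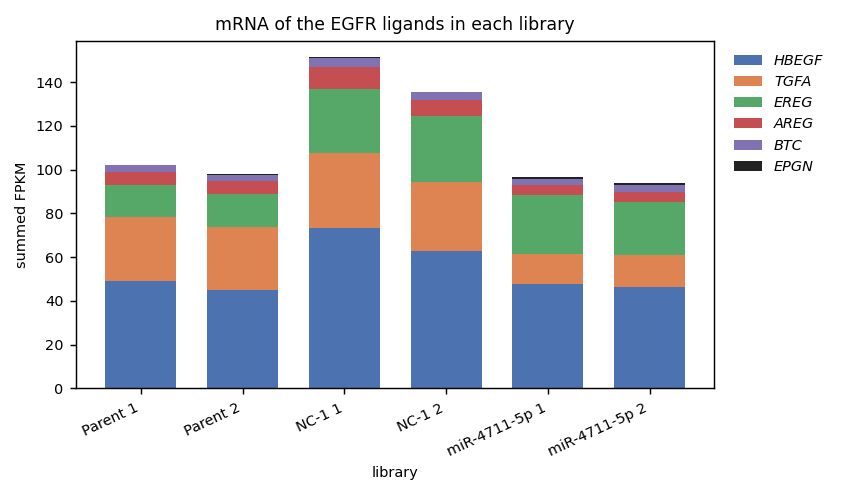
Level of each of the 6 EGFR ligands, in FPKM, stacked to their sum, with 1 bar per library. HBEGF makes up 45.8% to 49.5% of the sum throughout. TGFA makes up 28.6% and 29.4% of it in Parent and 14.6% and 15.4% with miR-4711-5p.

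The receptors summed to 109 and 102 FPKM in Parent, 98.1 and 94.7 FPKM with NC-1, and 111 and 109 FPKM with miR-4711-5p. EGFR exceeded ERBB2 by 3.25 and 3.22 times in Parent, 2.99 and 2.90 times with NC-1, and 3.78 and 3.37 times with miR-4711-5p, and the 3 groups did not overlap in this ratio.

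The rest of the family was scarce. ERBB4, the receptor for neuregulins and BTC, did not exceed 0.0256 FPKM, NRG3 was listed at 0 in all 6 libraries, EGF ranged from 0.0229 to 0.171 FPKM and NRG2 from 0.0301 to 0.156 FPKM. NRG4, a neuregulin that binds ERBB4, was the only one of these 5 genes to pass the filter. It measured 2.34 and 1.77 FPKM in Parent, 1.42 and 1.63 FPKM with NC-1, and 1.41 and 1.48 FPKM with miR-4711-5p. It was called in no comparison, with log2 differences of -0.04 (limma adjusted p = 0.816) against NC-1 and -0.31 (adjusted p = 0.0830) against Parent. Without Parent 2, or without the trend in the fit, 1 gene of this list was called against Parent.

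Genes that act before and after the receptors were described by list, beside the percentages of all tested genes called in each comparison given above. In the shedding list, the proteases that release the ligands, their carriers and their inhibitor, 9 of 10 genes were tested. Relative to NC-1, 2 rose and 5 fell with miR-4711-5p (median log2 fold change -0.24), and against Parent 3 were higher and 3 lower (median -0.03), where the median over all tested genes was 0.00 and -0.01. In NC-1 against Parent, 6 were higher and 1 lower (median 0.22). This total of 7 fell without any single Parent or NC-1 library, as did the count over all tested genes. Against NC-1 the total of 7 fell without miR-4711-5p 2, and the count over all tested genes fell there too. TIMP3, an inhibitor of ADAM17, had means of 34.3 FPKM in Parent, 43.7 with NC-1 and 18.1 with miR-4711-5p, and fell by 1.23 against NC-1 and 0.89 against Parent on the log2 scale (limma adjusted p = 7.26e-06 and 1.88e-05). ADAM15, a disintegrin metalloprotease, had means of 131, 112 and 66.7 FPKM and fell by 0.74 and 0.97 (limma adjusted p = 3.29e-05 and 9.49e-06). RHBDF2, an iRhom that carries ADAM17 to the surface, rose from 9.11 FPKM with NC-1 to 11.9 FPKM with miR-4711-5p (limma adjusted p = 0.00372). ADAM19 had means of 1.13, 3.79 and 5.04 FPKM and rose mostly between Parent and NC-1, by 1.17 on the log2 scale (limma adjusted p = 0.000870), and by 0.33 from NC-1 to miR-4711-5p (adjusted p = 0.0329). ADAM17 itself, named after its values were seen because it releases most of these ligands, measured 6.87 and 6.78 FPKM in Parent, 8.60 and 8.66 FPKM with NC-1, and 8.29 and 9.26 FPKM with miR-4711-5p, and was called higher than in Parent with NC-1 (log2 difference 0.30, limma adjusted p = 0.0189) and with miR-4711-5p (0.32, adjusted p = 0.00841). Between the transfected groups its difference was 0.02 (limma adjusted p = 0.846).

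Of the 27 adaptors and effectors tested, with miR-4711-5p 3 rose and 9 fell against NC-1 (median log2 fold change -0.11), and 3 were higher and 8 lower against Parent (median -0.00). In NC-1 against Parent, 4 were higher and 3 lower. Single libraries moved these totals. The totals were 12 against NC-1, 11 against Parent and 7 in NC-1 against Parent. Each fell without any single library of the 2 groups compared. The count over all tested genes fell too in these fits against NC-1 and in NC-1 against Parent. Against Parent it fell without either Parent library or miR-4711-5p 1. The genes called in the same direction against both controls with the largest changes were SOS1, the exchange factor that activates RAS, PLCG1, the phospholipase that binds activated receptors, the kinase ARAF and the adaptor SHC1. SOS1 had means of 5.72 FPKM in Parent, 6.21 with NC-1 and 4.54 with miR-4711-5p (log2 difference -0.38 against NC-1, limma adjusted p = 0.00567). PLCG1 had means of 18.2, 20.4 and 26.4 FPKM (0.36, adjusted p = 0.00155). ARAF and SHC1 fell by 0.26 and 0.17 against NC-1 (limma adjusted p = 0.0150 and 0.0142).

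Of the 16 genes of receptor restraint and turnover tested, 3 were higher and 3 lower against NC-1 (median 0.10), and 5 were higher and 1 lower against Parent (median 0.08). ERRFI1, a feedback inhibitor that binds the EGFR kinase, had means of 49.4 FPKM in Parent, 69.9 with NC-1 and 94.5 with miR-4711-5p. It rose in both steps, by 0.49 from Parent to NC-1 and by 0.43 from NC-1 to miR-4711-5p on the log2 scale (limma adjusted p = 0.00204 and 0.00109). LRIG1, which promotes loss of the receptors from the surface, had means of 7.93, 6.54 and 9.57 FPKM and rose by 0.49 against NC-1 and 0.24 against Parent (limma adjusted p = 0.00116 and 0.0199). SOCS5, which is known to lower EGFR levels, had means of 3.27, 2.68 and 4.37 FPKM (0.55 against NC-1, limma adjusted p = 0.00222). The ubiquitin ligase gene CBLC fell by 0.25 against NC-1 (limma adjusted p = 0.00728). Between the control groups 4 were higher and 1 lower in NC-1. This total of 5 fell with any single library left out. The count over all tested genes also fell without any single Parent or NC-1 library. Against Parent the total of 6 fell without any single Parent or miR-4711-5p library. Against NC-1 the total of 6 fell without miR-4711-5p 1. The count over all tested genes fell too, against Parent without either Parent library or miR-4711-5p 1, and against NC-1 without miR-4711-5p 1.

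Of the 16 genes tested that are known to respond to ERK, 3 were higher and 4 lower against NC-1 (median log2 fold change 0.05), and 9 were higher and 5 lower against Parent (median 0.25). Between NC-1 and Parent 1 of the 16 was called, a call that was lost with any library but miR-4711-5p 2 left out. With median-of-ratios scaling 5 were called, while the count over all tested genes went from 3279 to 3189. ETV5 and ETV4, ETS-family transcription factors, and CCND1, cyclin D1, were lower with miR-4711-5p. ETV5 had means of 5.76 FPKM in Parent, 5.73 with NC-1 and 3.13 with miR-4711-5p, with a log2 difference of -0.71 against each control (limma adjusted p = 0.00121 against NC-1 and 0.00102 against Parent). ETV4 and CCND1 fell by 0.47 and 0.40 against NC-1 (limma adjusted p = 0.00327 and 0.00144). DUSP5, a nuclear phosphatase of ERK, went the other way, with means of 38.7, 42.8 and 62.9 FPKM and a log2 difference of 0.55 against NC-1 (limma adjusted p = 0.000159). Against NC-1 the total of 7 fell without either miR-4711-5p library, and against Parent the total of 14 fell without Parent 2 or miR-4711-5p 1. The count over all tested genes fell in the same fits.

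**Figure D4:**
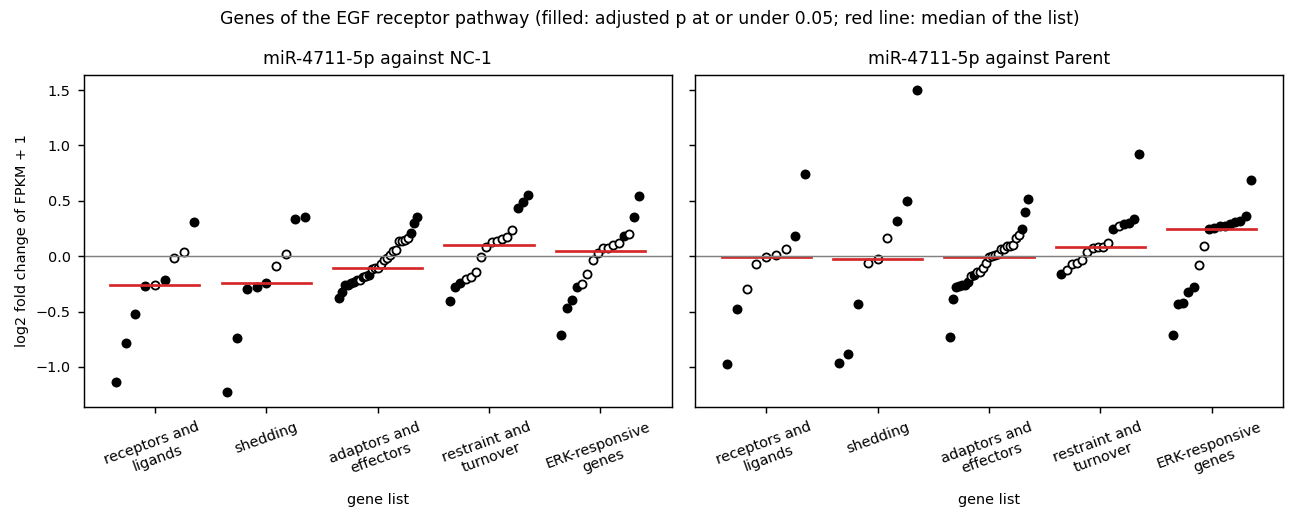
Fitted log2 fold change on the log2(FPKM + 1) scale of the tested genes in the members and in each pathway list, with miR-4711-5p against NC-1 on the left and against Parent on the right. Each point is 1 gene, filled where called, and a red line marks the list median. Most points lie within 1 of 0, and the list medians range between -0.26 and 0.25.

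The genes whose levels followed TGFA most closely over the 6 libraries, by Pearson correlation of log2(FPKM + 1), were FADS1 (r = 0.9996), CTSA (r = 0.999) and SNX1 (r = 0.998). For EGFR they were RABL6 and SGTA (r = 0.996 each) and SURF6 (r = 0.994). These were the highest of 12040 genes over 6 points in 3 groups, so they describe the pattern and no test is given.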

How the data were processed

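The authors prepared stranded mRNA libraries and deposited FPKM per gene symbol for 6 libraries. The labels name TopHat2 2.1.1, Bowtie2 2.3.5.1, SAMtools 1.2, Cuffdiff and Cufflinks 2.2.1 with hg19, the methods name other versions and Cuffnorm, and which made the values is not settled. The annotation and strand option are not given in the sources used here. As the unit is FPKM, count models were left out. limma 3.58.1 (R 4.3.3, lmFit and eBayes with a trend) was fitted on log2(FPKM + 1) for genes averaging 1 FPKM or more, with all 3 groups in 1 fit (3 residual degrees of freedom), two-sided, with Benjamini-Hochberg adjustment over 12040 genes. This step was tested on simulated data. An exact permutation test of 2 against 2 libraries cannot go below p = 0.333. The members and lists were chosen with earlier results of these data known. All 10 members were named and, from each list, at most 4 genes called in the same direction against both controls with the largest change against NC-1. ADAM17 was added outside this rule. For sites, 10599 genes matched GENCODE transcripts on GRCh37 by symbol and 596 by an older symbol, and 845 did not match. Python 3.11.15, pysam 0.24.0 and minimap2 2.31-r1302 were used. Alternatives were the pseudocount, filter, scaling, trend, groups in the fit, replicate block, a fold minimum and each library left out.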

Additional observations from a re-analysis of the deposited data

How the results depend on the processing

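Of the 9 tested members, 6 were called against NC-1, 4 against Parent and 5 between NC-1 and Parent. The last number was 3 without the filter on low values and 3 with only the 2 groups compared in the fit. The count over all genes was 2165 and 2252 in these fits, beside 3279 in the main fit. Each of the 3 numbers fell in some fits with a library left out. For the last number, the count over all tested genes also fell without any single Parent or NC-1 library. With a change of at least 1.5-fold required as well, the numbers were 2, 2 and 1, where 1295, 1490 and 501 of all 12040 tested genes were called. Some calls remained in all 12 alternative fits without a fold minimum. They were TGFA against both controls, EGFR, AREG and HBEGF against NC-1, EREG and NRG1 against Parent, and EREG and HBEGF between NC-1 and Parent. Of these, EGFR and HBEGF against NC-1, NRG1 against Parent and HBEGF between NC-1 and Parent missed the 1.5-fold minimum. Differences near 0 changed sign. HBEGF against Parent was 0.015 with median-of-ratios scaling and -0.069 to 0.061 with a library left out. With a library left out, BTC against Parent was -0.068 to 0.097, ERBB3 against NC-1 was -0.046 to 0.0048, and ERBB2 against NC-1 was -0.0060 to 0.078. The cause of these changes was not tested. The replicate numbers do not mark a shared culture or day in the labels, and deviations of same-numbered libraries correlated at 0.06, 0.00 and -0.01. With the replicate block the members called numbered 6, 4 and 5. A fit that leaves out 1 library assumes that the lone library varies like the other groups. The sites in members were 3 in the longest and 3 in any annotated 3′ UTR. A fit of AREG summed with AREGB was not run, since AREGB has no row. The fit of EPGN with each library left out was added after seeing the data. Depth in reads is unknown and limits the low genes, of which EPGN is the lowest among the 10 members.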
